A study of Homo sapiens with 14 samples.

Results

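The 10 genes described here, POU5F1, NANOG, SOX2, DPPA4, DNMT3B, L1TD1, ZFP42, LIN28B, PRDM14 and TDGF1, are pluripotency genes taken by name from a fixed list, out of 63677 gene identifiers counted in the bulk libraries. All 10 were found in the bulk tables and 8 of them in the table of gastruloid nuclei. The cells were H9, an established human embryonic stem cell (hESC) line. The 12 bulk RNA-seq libraries comprised 2 of hESC, 3 of definitive endoderm without sgRNA, 3 of endoderm with sgRNA, 2 of foregut without sgRNA and 2 of foregut with sgRNA. Endoderm was reached in 3 days with activin at 100 ng/ml and the WNT agonist CHIR-99021 at 5 then 0.5 µM. Foregut was reached by a pancreatic differentiation kit protocol, with 3 days of endodermal and then 3 days of foregut differentiation. Whether its endodermal days used the same activin and CHIR-99021 is not given in the sources used here. Between the endoderm and foregut libraries the protocol may therefore differ along with the stage. The endoderm and foregut cells carried dCAS9-KRAB, a nuclease-dead CAS9 fused to a repressor domain, from a lentiviral vector with puromycin selection, and the sgRNA were directed, according to the study's methods, at the LTR5 long terminal repeats of the HERVK retrovirus. Whether the 2 hESC libraries carried the vector is not given in the sources used here. For the foregut libraries, the titles and the status fields of the labels contradict each other, and the groups follow the titles. One further preparation, of gastruloids grown from 800 H9 cells a well and exposed to CHIR-99021 at 3 µM, gave RNA and accessible chromatin of the same nuclei at 72 h.

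POU5F1 (OCT4) and SOX2 are transcription factors that bind DNA as a pair at many enhancers of the pluripotent cell, and NANOG, a homeodomain factor, stabilises that state. PRDM14, ZFP42 (REX1) and DPPA4 are nuclear proteins characteristic of the inner cell mass and of embryonic stem cells. DNMT3B is a de novo DNA methyltransferase, LIN28B and L1TD1 bind RNA, and TDGF1 (CRIPTO) is the membrane co-receptor of NODAL, the signal that activin mimics in endoderm differentiation. NANOG and POU5F1 are also known from mouse and human work to stay on for a time in cells that enter the endoderm, and SOX2 to return in the anterior gut.

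The 12 bulk libraries held between 11583063 and 37152434 reads in genes, of which 8.3 to 34.7% were mitochondrial. Pairs of libraries of 1 group correlated at 0.957 to 0.996 on the log2 scale across genes. Foregut libraries had reads in fewer genes (15005 to 17926) than the others (19678 to 20973). The endoderm markers SOX17, FOXA2, GATA4, GATA6, CXCR4, EOMES, CER1, GSC and HHEX summed to between 29.2 and 43.5 CPM (reads per 1000000 on TMM-scaled library sizes) in hESC and to between 5520 and 6050 in endoderm without sgRNA, and the foregut list reached 660 to 841 CPM in foregut without sgRNA. Reads that mapped uniquely to LTR5_Hs copies, 1 of the repeat families under the sgRNA, summed to 11.1 to 12.9 CPM in endoderm without sgRNA and 8.57 to 11.5 with, and to 8.31 to 8.74 against 4.64 to 8.17 in foregut. Those of LTR5B, whose consensus was used to design the sgRNA, summed to 1.63 to 2.26 CPM in endoderm without sgRNA and 1.12 to 2.02 with, and to 6.08 to 7.37 against 2.18 to 3.37 in foregut. Reads of HERVK-int, the internal part of the retrovirus, were not lower with sgRNA. They summed to 0.23 to 1.0 CPM in endoderm without sgRNA and 0.72 to 2.6 with. In foregut they summed to 1.20 and 2.03 CPM without sgRNA and 3.01 and 2.88 with.

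Proximal promoters were read from the RefSeq table of GRCh38.p14, which holds 8 of the 10 genes (TDGF1 under its symbol CRIPTO) and not POU5F1 or PRDM14. The 250 bases before each start were searched on both strands for the octamer core bound by POU factors (ATGCAAA, or TTTGCAT on the other strand) and for a SOX core (ACAATG, or CATTGT). NANOG was the only one of the 8 with both within 10 bases of each other, an arrangement found in 0.108% of the 35116 promoters in the table. SOX2 held an octamer core alone (3.94% of all promoters) and LIN28B and TDGF1 a SOX core alone (9.29%). The NANOG, SOX2 and TDGF1 sequences are given, with the motifs in capitals, because they hold the pair, an octamer core alone and a SOX core alone. They lie at chr12:7789152-7789401, chr3:181711675-181711924 and, for the second of the TDGF1 starts, chr3:46577538-46577787, all on the plus strand.
NANOG: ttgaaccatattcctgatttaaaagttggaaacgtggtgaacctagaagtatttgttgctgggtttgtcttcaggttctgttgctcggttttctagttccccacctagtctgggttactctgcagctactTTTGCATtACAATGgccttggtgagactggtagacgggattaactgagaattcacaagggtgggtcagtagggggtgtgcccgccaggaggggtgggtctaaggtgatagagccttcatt
SOX2: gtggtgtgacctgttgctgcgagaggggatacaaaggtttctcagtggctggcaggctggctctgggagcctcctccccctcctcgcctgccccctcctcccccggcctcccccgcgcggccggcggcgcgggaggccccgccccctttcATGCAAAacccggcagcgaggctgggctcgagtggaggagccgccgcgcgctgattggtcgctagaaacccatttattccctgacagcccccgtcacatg
TDGF1: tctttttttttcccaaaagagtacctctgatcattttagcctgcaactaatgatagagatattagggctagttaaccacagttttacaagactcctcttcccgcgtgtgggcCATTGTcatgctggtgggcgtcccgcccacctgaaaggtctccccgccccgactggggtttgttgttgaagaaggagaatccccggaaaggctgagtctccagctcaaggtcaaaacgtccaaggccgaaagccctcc
In NANOG the octamer core began 120 bases and the SOX core 112 bases before the start. These are matches of letters, not measured binding sites.

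The first comparison asked which pluripotency genes were still expressed after 3 days of endoderm differentiation. Of the 10 genes, 7 fell (SOX2, DPPA4, DNMT3B, L1TD1, ZFP42, LIN28B and PRDM14), 1 rose (TDGF1), and POU5F1 and NANOG did not pass the test. A gene was called when edgeR's quasi-likelihood test gave a Benjamini-Hochberg adjusted p below 0.05 and the change exceeded 2-fold. In this comparison 26.0% of 20818 genes were called, 14.2% as higher and 11.8% as lower in endoderm. The libraries of the groups did not overlap for 7 members in the lower direction, as for 30.6% of all genes, nor for 2 (POU5F1 and TDGF1) in the higher, as for 29.8%. The median log2 change was −1.47 over the members and 0.04 over all genes tested.

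**Figure D1:**
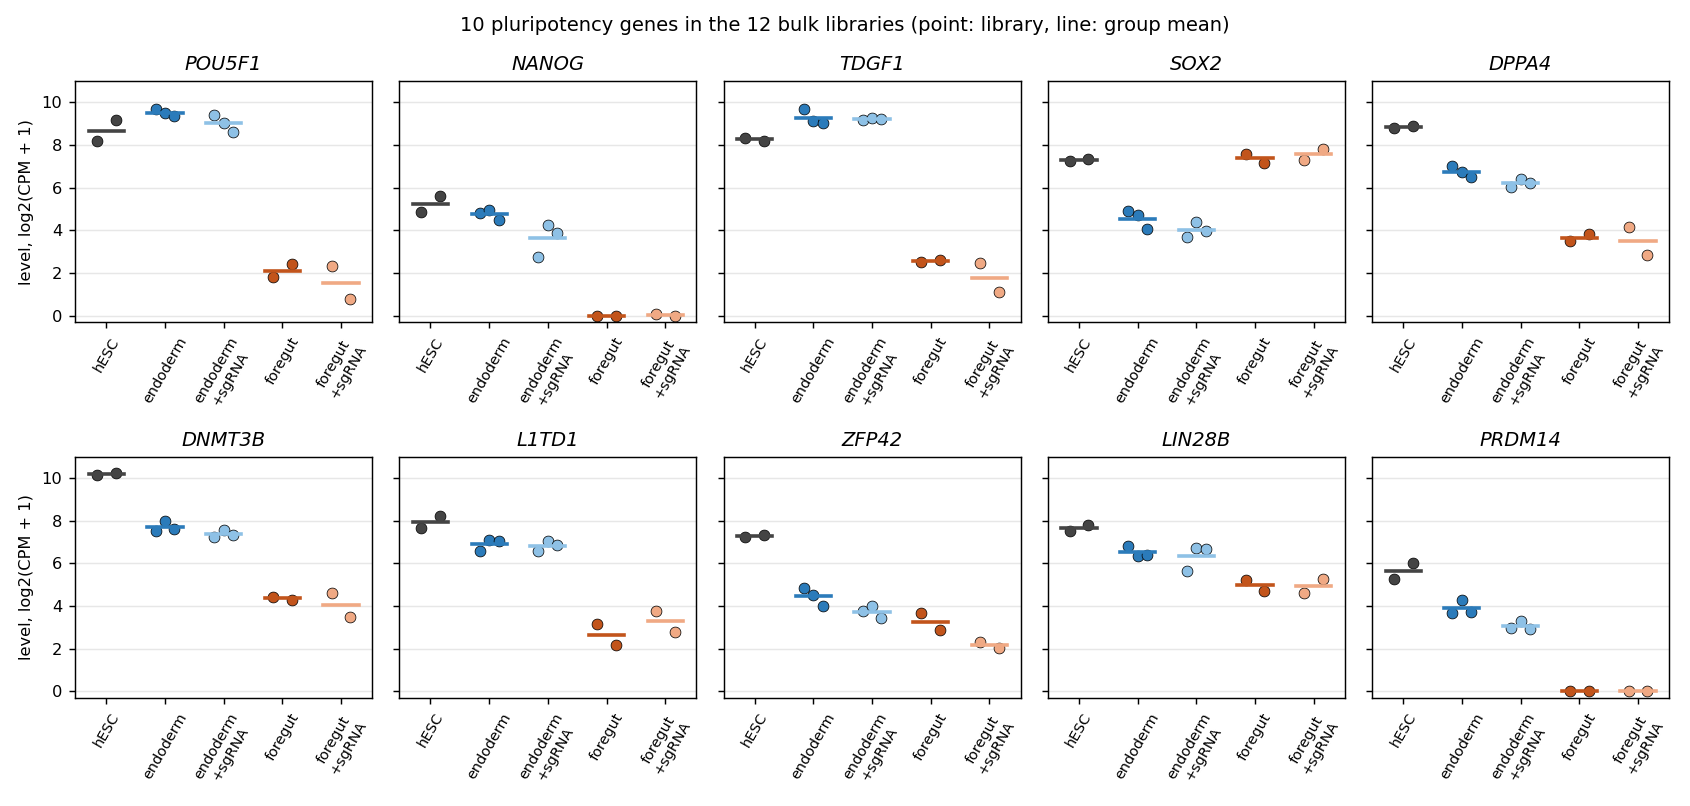
Level of the 10 genes, as log2(CPM + 1) on the vertical axis, in each of the 12 bulk libraries (points) with the group mean (lines). POU5F1 and TDGF1 are higher in endoderm without sgRNA than in hESC. NANOG libraries of these groups overlap, at a mean of 70.0% of hESC in endoderm. All of these drop in foregut, while SOX2 drops in endoderm and is back at its hESC level in foregut. The other 6 fall at both steps.

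POU5F1 measured 291 and 575 CPM in the 2 hESC libraries and 826, 716 and 652 CPM in endoderm without sgRNA, so that every endoderm library lay above both hESC libraries. The mean was 433 ± 201 (SD, n = 2) and 731 ± 88.0 CPM (SD, n = 3). On the log2 scale this was 0.79 (SE 0.24) with an edgeR adjusted p of 0.0168, under the 2-fold limit. The spread between the hESC libraries was of the same order as the difference. The result turned on which hESC library was kept. With hESC replicate 2 left out, POU5F1 was called as higher (log2 fold change 1.35, edgeR adjusted p = 0.0049), with replicate 1 left out the change was 0.38 (adjusted p = 0.261), and with all 12 libraries in 1 fit it was 0.75 (adjusted p = 0.264).

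TDGF1 was the only member called higher. Its hESC libraries held 325 and 290 CPM, and its endoderm libraries held 827, 567 and 517 CPM. The groups did not overlap, and the ratio of the means was 2.07 (log2 fold change 1.08, SE 0.21, edgeR adjusted p = 8.48e-04). The value lay at the fold limit, and without endoderm replicate 1 (log2 fold change 0.85) or without hESC replicate 2 (log2 fold change 1.0) it was no longer called.

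NANOG measured 28.4 and 47.2 CPM in hESC and 27.4, 30.4 and 21.6 CPM in endoderm without sgRNA. These ranges overlapped, and the log2 fold change of −0.48 (SE 0.23) had an edgeR adjusted p of 0.121. Without hESC replicate 1 it was −0.80 (adjusted p = 0.0495), and without hESC replicate 2 it was −0.08 (adjusted p = 0.848). Endoderm held 70.0 ± 11.9% (SD, n = 3) of the mean hESC level of NANOG, while the figure for POU5F1 was 169 ± 20.3% and for TDGF1 207 ± 54.2%.

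SOX2, the usual partner of POU5F1, was lost at this step. It fell from 153 and 163 CPM in hESC to 29.1, 25.1 and 15.5 CPM in endoderm, a 6.81-fold lower mean (log2 fold change −2.73, SE 0.23, edgeR adjusted p = 2.21e-07). ZFP42 went from 149 and 158 CPM to 28.2, 22 and 14.9 CPM, 7.05-fold lower (log2 fold change −2.78, SE 0.23). DNMT3B, the most abundant of the 10 in hESC, went from 1140 and 1209 CPM to 184, 255 and 193 CPM, 5.58-fold lower (log2 fold change −2.45, SE 0.19). In none of these 3 genes did any endoderm library come near an hESC library.

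DPPA4 fell from 444 and 467 CPM to 128, 105 and 88.9 CPM (log2 fold change −2.05, SE 0.19). PRDM14 fell from 38.1 and 64.9 CPM to 11.6, 18.6 and 12.3 CPM (log2 fold change −1.83, SE 0.26, edgeR adjusted p = 4.08e-05). These 5 genes kept between 14.2% (ZFP42) and 27.5% (PRDM14) of their hESC mean.

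The RNA-binding proteins came down less far. L1TD1 went from 202 and 303 CPM to 95.9, 137 and 130 CPM, which is 47.9 ± 8.66% of the hESC mean (log2 fold change −1.03, SE 0.21, edgeR adjusted p = 0.0012). LIN28B went from 184 and 224 CPM to 112, 81.6 and 82.1 CPM, or 45.2 ± 8.67% (log2 fold change −1.11, SE 0.20). Both lay close to the 2-fold limit, and without hESC replicate 2 neither was called (log2 fold changes −0.72 and −0.97), nor was L1TD1 without endoderm replicate 1 (−0.88). LIN28A, the paralog of LIN28B, averaged 699 ± 320 CPM in hESC and 655 ± 70.6 CPM in endoderm, and remained at 689 ± 159 CPM in foregut.

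**Figure D2:**
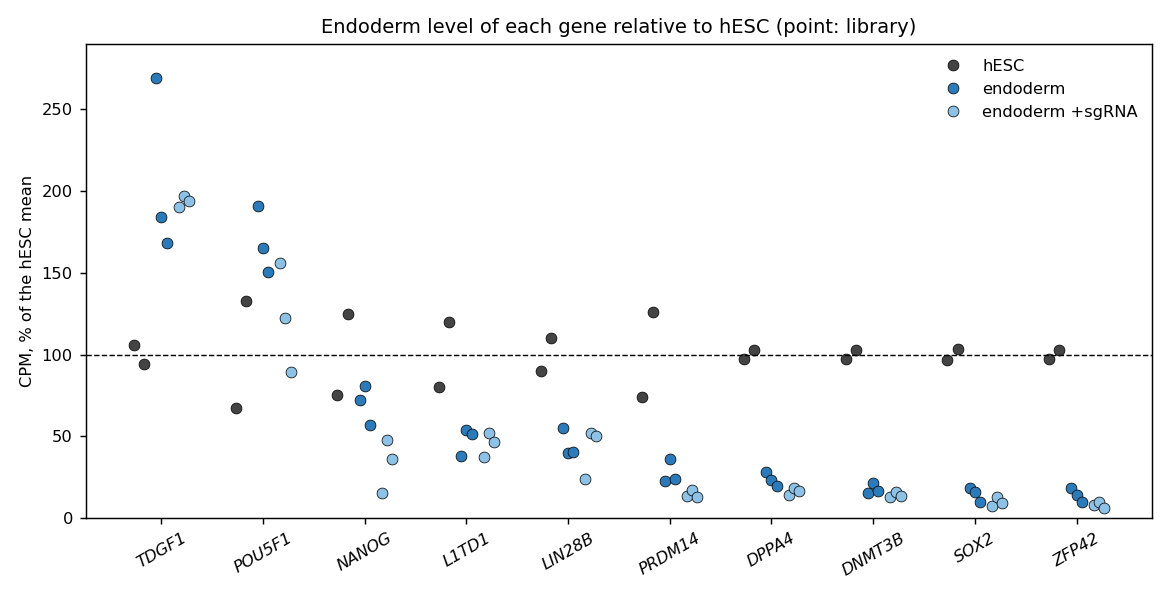
CPM of each gene in hESC and endoderm libraries as a percent of the mean of the 2 hESC libraries (vertical axis, dashed line at 100%). Genes are ordered by their endoderm level, from TDGF1 at 207% and POU5F1 at 169% down to SOX2 at 14.7% and ZFP42 at 14.2%.

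The hESC libraries themselves did not differ evenly. POU5F1, NANOG, PRDM14 and L1TD1 were all lower in replicate 1 than in replicate 2 by more than any of SOX2, DPPA4, DNMT3B and ZFP42, for which the 2 libraries lay close together. Mitochondrial reads made up 25.5% of replicate 1 and 16.9% of replicate 2, and the part of this difference in the result was not tested.

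Per kilobase of exon, the order of the levels changed along with these shifts. The length was that of all annotated exons of a gene together, 5392 bases for NANOG and 2870 for POU5F1. It can exceed that of the transcript made in these cells. Reads that also matched near-identical copies were not counted. The order is thus one of these counts and may differ from that of the transcripts. In hESC the first 3 were DNMT3B at 171 ± 7.01, POU5F1 at 151 ± 69.9 and TDGF1 at 124 ± 9.84 CPM per kb (SD, n = 2). The spread of POU5F1 covered both neighbours, whereas DNMT3B and TDGF1 lay apart. DPPA4 followed at 91.7 ± 3.28 CPM per kb, then L1TD1, SOX2 and ZFP42 at 65.9 ± 18.5, 62.9 ± 2.8 and 57.8 ± 2.38, which did not differ beyond the spread of L1TD1. LIN28B at 34.3 ± 4.81 and PRDM14 at 21.8 ± 7.99 came next, and NANOG was lowest at 7.01 ± 2.46. In endoderm without sgRNA, TDGF1 at 256 ± 67.0 and POU5F1 at 255 ± 30.7 CPM per kb stood above the others, of which L1TD1 at 31.5 ± 5.70 and DNMT3B at 30.6 ± 5.64 came next and could not be told apart. NANOG and PRDM14 closed the order in endoderm, at 4.91 ± 0.84 and 5.98 ± 1.63 CPM per kb. In foregut, SOX2 stood alone at 66.3 ± 13.7 CPM per kb, and the gene below it was LIN28B at 5.17 ± 1.29.

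Several of these genes have near-identical copies. Only uniquely mapped reads were counted, so reads that match a gene and its copy equally well are in neither count. NANOGP8 averaged 15.4 ± 7.50 CPM in hESC and 11.3 ± 3.40 CPM in endoderm without sgRNA, a course like that of NANOG, and TDGF1P3 rose from 25.7 ± 1.6 to 59.5 ± 4.76 CPM as TDGF1 did. POU5F1P3 and POU5F1B followed POU5F1 from hESC (9.62 ± 4.43 and 20.7 ± 10.2 CPM) to endoderm (17.2 ± 1.54 and 36.7 ± 3.04 CPM). The levels of the 3 parent genes are therefore uncertain, by an amount that the reads counted on the copies do not give.

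Of a list of 22 other genes of primed pluripotency, 11 were called lower and 3 higher in endoderm (median log2 change −0.86), where 11.8% of all genes were lower and 14.2% higher, so that the count of higher genes was near the share over all genes. The lower ones included SOX3, a close relative of SOX2, from 9.23 ± 0.27 to 0.43 ± 0.12 CPM, POLR3G, an RNA polymerase III subunit, from 213 ± 17.9 to 11.6 ± 4.82 CPM, the deubiquitinase gene USP44 from 222 ± 51.7 to 20.4 ± 6.14 CPM, and the forkhead factor FOXD3 from 17.3 ± 1.24 to 1.70 ± 0.40 CPM. The 3 called higher were SALL4, ZIC2 and OTX2 (log2 fold changes 1.08, 1.01 and 2.71), named here after their values were seen. Of 13 genes of the NODAL and FGF inputs, 7 were higher and 1 lower, with NODAL rising from 2.1 ± 0.22 to 183 ± 29.6 CPM, its inhibitor LEFTY1 from 3.32 ± 1.79 to 131 ± 72.5 CPM and LEFTY2 from 1.48 ± 0.23 to 51.6 ± 27.8 CPM. TDGF1, the co-receptor of NODAL, thus rose along with its ligand. Of 12 genes of naive pluripotency 9 could be tested, of which 4 were higher and 3 lower, among them TBX3 (0.31 ± 0.44 to 30.8 ± 7.61 CPM), KLF5 (0.38 ± 0.07 to 9.51 ± 1.5 CPM) and DPPA3 (4.57 ± 1.06 to 0.14 ± 0.04 CPM).

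Markers of other cell types that express POU5F1 or NANOG were measured in the same libraries. Of 8 germ cell genes, PRDM1 (0.02 ± 0.03 to 43.1 ± 6.64 CPM), TFAP2C (4.88 ± 1.94 to 14.8 ± 8.01 CPM) and KIT (42.3 ± 8.36 to 92.3 ± 26.7 CPM) were called higher in endoderm. NANOS3 (0.09 ± 0.06 to 0.28 ± 0.02 CPM), SOX15 (0.27 ± 0.26 to 0.29 ± 0.18 CPM) and DAZL (0.51 ± 0.02 to 0.36 ± 0.35 CPM) were not called. DND1 and DDX4 had at most 3 reads in each endoderm library. Of all genes tested, 14.2% were called higher in this comparison. The germ cell list summed to 43.9 to 52.6 CPM in hESC and 136 to 180 CPM in endoderm, most of the latter from KIT and PRDM1. A mesoderm list of 7 genes summed to 1.77 to 2.03 CPM in hESC and 96.4 to 251 CPM in endoderm. Of its genes 6 of 7 were called higher, against the same 14.2% of all genes. SOX2, ZFP42 and DNMT3B, which also mark undifferentiated cells, stood at 14.7, 14.2 and 17.9% of their hESC means in the same endoderm libraries. In bulk RNA, fewer cells that express a gene and less RNA per cell cannot be told apart.

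At the second step, from endoderm to foregut, POU5F1 and NANOG, not called in endoderm, and TDGF1, called higher there, fell with most of the others. Without sgRNA all 10 genes were called, 9 of them lower and SOX2 higher, where 29.0% of 21466 genes were called in either direction 15% as lower and 14.1% as higher. The median log2 change of the members was −3.92, against −0.09 over all genes. With sgRNA, in libraries that share no sample with those, the same 9 genes were lower and SOX2 higher, where 26.3% of 20735 genes were called, 13.4% as lower and 12.9% as higher. In neither pair of groups did the libraries overlap for any of the 10, whereas all genes were apart in the lower and the higher direction in 33.4 and 25.6% of cases without sgRNA and in 33.3 and 23.1% with.

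POU5F1 dropped to 2.53 and 4.34 CPM in foregut without sgRNA, from the endoderm levels of 652 to 826 CPM, a 213-fold lower mean (log2 fold change −7.73, SE 0.35, edgeR adjusted p = 2.45e-06). With sgRNA it went from 675, 531 and 386 CPM to 4.06 and 0.70 CPM, 223-fold lower (log2 fold change −7.74, SE 0.78). TDGF1 dropped from 827, 567 and 517 CPM to 4.71 and 5.08 CPM without sgRNA (130-fold), and from 586, 606 and 596 CPM to 4.53 and 1.14 CPM with sgRNA (210-fold). Without foregut sgRNA replicate 1 the log2 fold changes with sgRNA were −9.53 for POU5F1 and −9.0 for TDGF1, and without replicate 2 they were −7.06 and −7.07. The genes with the highest endoderm levels were near 1% of their hESC level in foregut without sgRNA. POU5F1 stood at 0.79 ± 0.29% and TDGF1 at 1.59 ± 0.09% (SD, n = 2).

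NANOG had no read in either foregut library without sgRNA. Counted against a floor of 3 reads in each library, this is at least 303-fold lower than in endoderm. With sgRNA 1 library held 2 reads and the other none, a ratio of 345 to the 12.5 CPM of endoderm with sgRNA when the empty library is taken as 0 (95% counting interval 91.0 to 2730). PRDM14 had no read in any of the 4 foregut libraries, at least 162-fold lower than in endoderm without sgRNA and at least 62.6-fold lower with. Such intervals and floors cover counting error only.

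DPPA4, DNMT3B and L1TD1, which had already fallen in endoderm, fell again. DPPA4 came to 10.2 and 13 CPM in foregut without sgRNA (9.23-fold below endoderm), DNMT3B to 20.5 and 18.6 CPM (10.8-fold) and L1TD1 to 7.83 and 3.54 CPM (21.3-fold). Their hESC-relative levels were 2.55 ± 0.44, 1.66 ± 0.11 and 2.25 ± 1.20%. With sgRNA the ratios were 6.44, 9.81 and 12.3 (log2 fold changes −2.65, −3.26 and −3.58). These became −3.53, −4.0 and −4.24 without foregut sgRNA replicate 1, and that of L1TD1 without sgRNA became −5.11, from −4.42, without foregut replicate 1.

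ZFP42 and LIN28B fell least at this step. ZFP42 measured 11.6 and 6.34 CPM in foregut without sgRNA (log2 fold change −1.28, SE 0.38, edgeR adjusted p = 0.0278) and 3.92 and 3.06 CPM with sgRNA (log2 fold change −1.81, SE 0.38, adjusted p = 0.0100). The first call was lost without endoderm replicate 1, endoderm replicate 2 or foregut replicate 2 (edgeR adjusted p = 0.104, 0.0745 and 0.1), and the second without endoderm sgRNA replicate 2 (adjusted p = 0.0619). LIN28B kept 36.2 and 25.3 CPM without sgRNA and 23.7 and 37.1 CPM with, that is 15.1 ± 3.77 and 14.9 ± 4.66% of its hESC level. Its call with sgRNA (log2 fold change −1.46, SE 0.39, edgeR adjusted p = 0.0254) was lost in 3 of the 5 fits that left out 1 library, with adjusted p between 0.0561 and 0.0726.

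SOX2 ran against the other 9. It measured 191 and 142 CPM in foregut without sgRNA after 15.5 to 29.1 CPM in endoderm, a 7.18-fold higher mean (log2 fold change 2.84, SE 0.29, edgeR adjusted p = 1.29e-04). With sgRNA it rose from 12.1, 20.4 and 14.6 CPM to 157 and 224 CPM, 12.1-fold (log2 fold change 3.63, SE 0.29, adjusted p = 1.56e-04). Foregut without sgRNA held 105 ± 21.8% of the hESC level, and in the direct comparison with hESC the log2 fold change was 0.08 (SE 0.24, edgeR adjusted p = 0.813), with overlapping libraries. SOX2-OT, the transcript that overlaps SOX2, followed it with 3.16 ± 1.27 CPM in hESC, 0.19 ± 0.15 in endoderm and 3.54 ± 0.14 in foregut. A list of 6 neural genes, which could mark SOX2-positive cells of another kind, summed to 13.9 to 17.8 CPM in hESC, 21.6 to 35.2 in endoderm and 34.8 to 39.8 in foregut, where PAX6, SOX1, NEUROG2 and HES5 had at most 3 reads in each library and SOX21 held 32.2 ± 2.18 and IRX3 5.10 ± 1.42 CPM. Its part in the SOX2 level was not tested.

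Against hESC directly, foregut without sgRNA had 9 of the 10 genes lower, where 32.7% of 21191 genes were called, 16.6% as lower and 16% as higher. All 9 were apart from their hESC libraries, as were 38.8% of genes in that direction. This comparison shares libraries with the others. The ratio ran from 6.62-fold for LIN28B and 17.1-fold for ZFP42 to 126-fold for POU5F1 and at least 591-fold for PRDM14. Of the 22 primed network genes, 18 of the 21 tested were lower in foregut than in hESC and none was higher, at a median log2 change of −3.02.

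The profile of each core factor over the 12 libraries was set beside those of 10431 protein-coding genes with at least 5 CPM on average. Pearson's r of log2(CPM + 1) is given here as a description, since the libraries share groups. Among the closest to POU5F1 were TDGF1 (r = 0.994), ADCY2 (0.993), DDX31 (0.992) and LRP8 (0.991). Closest to NANOG were its copy NANOGP8 (0.992) and then SMC2 (0.985), ARHGAP11A (0.985), TRIM37 (0.983) and NUP133 (0.982). Among the closest to SOX2 were SHROOM3 (0.989), MAGI1 (0.987), SPSB4 (0.987) and COQ8A (0.983), genes that likewise fell in endoderm and came back. Among the members, POU5F1 with TDGF1 (0.993) and DPPA4 with DNMT3B (0.994) were the closest pairs, and SOX2 with TDGF1 (−0.779) the most opposed.

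The study next asked what repression of LTR5 changed in endoderm and foregut. In endoderm none of the 10 genes passed the test. Of 20407 genes 0.0343% did (7 genes, 0.0294% in the lower direction), and 4 members (NANOG, PRDM14, ZFP42 and DPPA4) had an unadjusted p below 0.05, as did 1056 of all genes tested. DESeq2 and limma-voom, run as alternatives, also called 0 of the 10. All 10 log2 changes lay below 0, with a median of −0.47 against −0.02 over all genes. The groups did not overlap for 3 members (NANOG, DPPA4 and PRDM14), as for 5.94% of all genes in that direction.

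NANOG showed the largest difference of the 10. It measured 5.80, 18.1 and 13.6 CPM with sgRNA after 27.4, 30.4 and 21.6 CPM without, a log2 fold change of −1.05 (SE 0.33, unadjusted p = 0.0067, edgeR adjusted p = 0.58). All 3 sgRNA libraries were below all 3 controls. NANOGP8 stood at 5.81 ± 1.40 against 11.3 ± 3.40 CPM and NANOGP1 at 0.90 ± 0.38 against 1.86 ± 0.41 CPM. The endoderm kept 33.1 ± 16.4% of the hESC level of NANOG with sgRNA and 70.0 ± 11.9% without. Without the low-count filter NANOG alone of the 10 was called (log2 fold change −1.06, edgeR adjusted p = 0.00195), in a fit that called 186 genes.

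PRDM14 measured 6.92, 8.89 and 6.72 CPM with sgRNA and 11.6, 18.6 and 12.3 CPM without (log2 fold change −0.89, SE 0.25, edgeR adjusted p = 0.467), again with no overlap. DPPA4 measured 65.5, 83.2 and 74.9 CPM with sgRNA against 128, 105 and 88.9 CPM (log2 fold change −0.50, SE 0.19, adjusted p = 0.787). ZFP42 measured 12.7, 15.1 and 9.75 CPM against 28.2, 22 and 14.9 CPM, groups that overlapped by 1 library (log2 fold change −0.77, SE 0.26, adjusted p = 0.634).

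The remaining 6 members also overlapped. In POU5F1, SOX2 and DNMT3B, as in ZFP42, only the highest sgRNA library exceeded the lowest control. These stood at 675 against 652 CPM, 20.4 against 15.5 CPM and 186.5 against 183.5 CPM. POU5F1 had a log2 fold change of −0.44 (SE 0.21), SOX2 of −0.54 (SE 0.26) and DNMT3B of −0.32 (SE 0.19). L1TD1, LIN28B and TDGF1 lay between −0.07 and −0.06 with standard errors of 0.20 to 0.27, and their sign depended on which libraries were kept. No gene of the other lists was called. The endoderm marker list summed to 6150 to 7090 CPM with sgRNA and 5520 to 6050 CPM without, the mesoderm list to 149 to 283 against 96.4 to 251 CPM, and the germ cell list to 90.3 to 141 against 136 to 180 CPM. The mesoderm list had a median log2 change of 0.79, with HAND1 at 45.3 ± 8.22 against 16.8 ± 7.25 CPM (edgeR adjusted p = 0.199), and the primed network list one of −0.35. Their part in the NANOG and PRDM14 values was not tested.

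**Figure D3:**
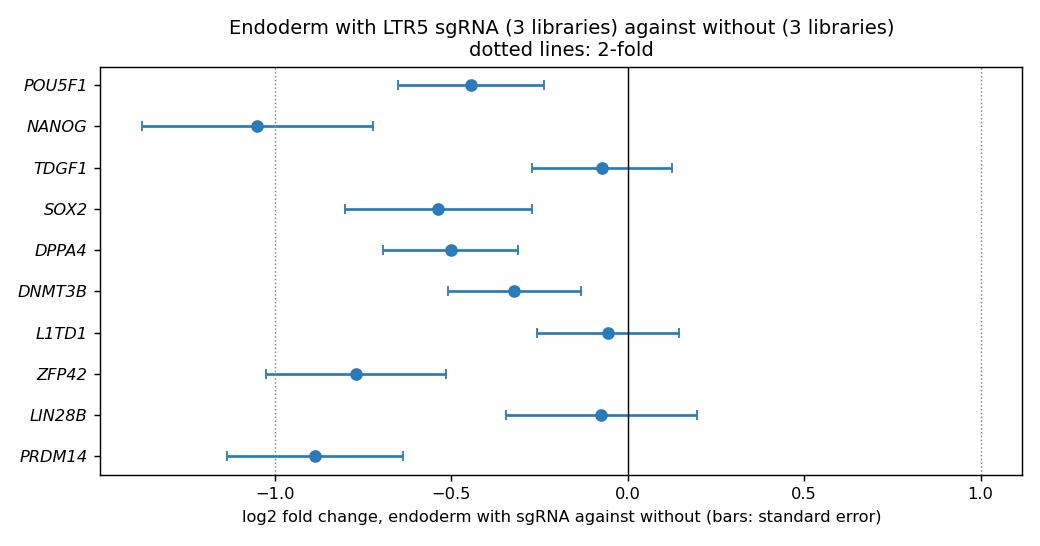
Log2 fold change (horizontal axis) of the 10 genes in endoderm with sgRNA against endoderm without, 3 libraries each, with standard errors derived from edgeR's F statistic. All 10 points lie left of 0, NANOG at −1.05 and PRDM14 at −0.89 farthest, and none passed the test.

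In foregut 8 of the 10 genes had enough reads to be tested, and none was called, where 0.165% of 20044 genes were. Calls in the higher direction made up 0.0499%. DESeq2 and limma-voom also called none of the 10. Of the 8, ZFP42 (3.92 and 3.06 CPM with sgRNA, 11.6 and 6.34 CPM without) had an unadjusted p below 0.05 in the edgeR fit and was far from passing after adjustment. Its libraries did not overlap, nor did those of TDGF1 (4.53 and 1.14 against 4.71 and 5.08 CPM), as for 15.7% of all genes in the lower direction. SOX2 had a log2 fold change of 0.19 (SE 0.32). POU5F1 differed by −0.53 on the log2 scale with a standard error of 1.08, which leaves large changes possible, since 1 sgRNA library held 4.06 and the other 0.70 CPM. Of the other lists 1 gene was called here, the foregut marker PDX1. It stood at 5.26 ± 3.49 CPM with sgRNA against 25.9 ± 1.7 without (log2 fold change −2.30, edgeR adjusted p = 0.00219). Its part in the values of the members was not tested. The sgRNA effect in foregut minus that in endoderm was called by edgeR for 0 of the 10, none with an unadjusted p below 0.05, where 0.194% of 22708 genes were called and 0.0528% as higher. DESeq2 and limma-voom again called 0. For the 8 genes with foregut reads it lay between −0.71 (TDGF1, SE 0.53) and 0.76 (L1TD1, SE 0.50) on the log2 scale, and NANOG and PRDM14 had too few foregut reads for a value. Without foregut sgRNA replicate 1, TDGF1 was called (−2.01, edgeR adjusted p = 0.0204).

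POU5F1B, a retrogene copy of POU5F1, differed from it in foregut. It had 19 to 21 reads (0.58 ± 0.06 CPM) in the foregut libraries without sgRNA and 68 to 119 reads (3.64 ± 0.95 CPM) with, where POU5F1 itself averaged 2.38 ± 2.38 CPM. It was looked at after its values were seen, and no test is attached.

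The distance of each gene to the repeats under the sgRNA was measured on GRCh37 coordinates. No member had an LTR5_Hs copy within 100 kb, a distance within which 6.80% of 20200 tested genes had one. NANOG was nearest at 663 kb, a distance within which 25.7% of genes had a copy, followed by TDGF1 at 677 kb. L1TD1 had an LTR5B copy 22.9 kb away, at chr1:62636649-62637639, as near as in 1.76% of genes, with 2 reads in the 12 libraries together. Of the LTR7 repeats of the HERVH retrovirus, which are active in hESC, 1 lay inside the DNMT3B gene at chr20:31375545-31376014 (0.931% of genes overlap one) and 1 lay 17.0 kb from TDGF1 at chr3:46598540-46598986 (1.77% as close). They held 0 and 5 reads.

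In gastruloids, which pass from hESC to axial and paraxial tissue, 3422 of 3646 nuclei were kept, with a median of 16302 UMIs. There was 1 preparation, so no test was made. TDGF1 and PRDM14 were not in the gene table, in which every listed gene had a UMI in at least 34 nuclei. POU5F1 gave 145 UMIs in all, 2.46 for each 1000000 UMIs (UMI CPM, 95% Poisson interval 2.08 to 2.89), and NANOG 73, 1.24 UMI CPM (0.97 to 1.56). With every nucleus thinned to 5000 UMIs, which left out 225 shallower nuclei, 1.44% of 3197 nuclei held a POU5F1 UMI (exact binomial 95% interval 1.06 to 1.91) and 0.657% a NANOG UMI (0.407 to 1.0). Before thinning these shares were 4.09 and 2.07% of 3422 nuclei. Of the thinned nuclei none held both, where the product of the shares gives 0.302 nuclei.

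POU5F1 and NANOG were low in every cluster. Nuclei were grouped into 9 clusters without use of the 10 genes. By fixed markers, cluster 1 was axial-like (7 of 7 markers over 2-fold above the rest, with SHH and NOTO), cluster 3 paraxial-like (6 of 8, with EBF1), cluster 4 segmenting-like (4 of 5, with RIPPLY1) and cluster 7 presomitic-like (4 of 6, with MSGN1 and TBX6), and the others were left unnamed. POU5F1 ranged from 0 to 3.84 UMI CPM and NANOG from 0 to 1.91, the 0 in both cases in cluster 2 with 34 nuclei. Thinned shares of nuclei with a POU5F1 UMI were 1.23% in paraxial-like nuclei and 2.05% in cluster 8, whose median depths were 14583 and 16863 UMIs. Cluster 6 had the highest thinned share, 2.56%. The interval of the paraxial-like nuclei, in which POU5F1 is not expected (0.494 to 2.51%), overlapped that of every other cluster. Nuclei with UMIs of both SOX2 and TBXT held POU5F1 in 4.31% of 116 (1.41 to 9.77%), against 0.977 to 1.42% in the nuclei with only 1 of them or neither, again with overlapping intervals. The share due to free RNA was not measured.

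SOX2 and L1TD1 were concentrated in cluster 8 (418 nuclei). There 3 of 7 neuromesodermal markers (NKX1-2, CDX2 and FGF8) and 1 of 4 detected neural markers (SOX3) were over 2-fold above the other nuclei. The axial-like cluster also passed 3 of 7 on the neuromesodermal list (TBXT, WNT3A and SP5). SOX2 reached 208 UMI CPM in cluster 8 and 103 in cluster 2, against 16.6 to 28.8 in the other 7. At equal depth 59.1% of the nuclei of cluster 8 held a SOX2 UMI and 10.5% of the paraxial-like nuclei of cluster 3. L1TD1 reached 167 UMI CPM in cluster 8 and 21.7 in the presomitic-like cluster, against 2.99 to 17.6 in the other 7, with 48.3% of thinned nuclei in cluster 8 and 2.28% in cluster 3. In all, 121 thinned nuclei held both SOX2 and L1TD1 UMIs, where the product of their shares gives 46.7.

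DNMT3B was also highest in cluster 8, with 68.6 UMI CPM, followed by the axial-like cluster at 54.4, and 31.4 to 48.4 elsewhere. ZFP42 had another order, at 36.7 UMI CPM in the segmenting-like and 29.2 in the presomitic-like cluster, and 7.97 in the axial-like cluster and 8.49 in cluster 8. DPPA4 was likewise highest in the segmenting-like cluster (95.7) and lowest in the axial-like one (41.9). LIN28B was found in 66.2% of thinned nuclei, at 127 UMI CPM in the axial-like cluster and 176 to 303 in the other 8. Differences between clusters are given as values of 1 preparation. Free RNA and doublets (2.05% of nuclei marked) were not removed.

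**Figure D4:**
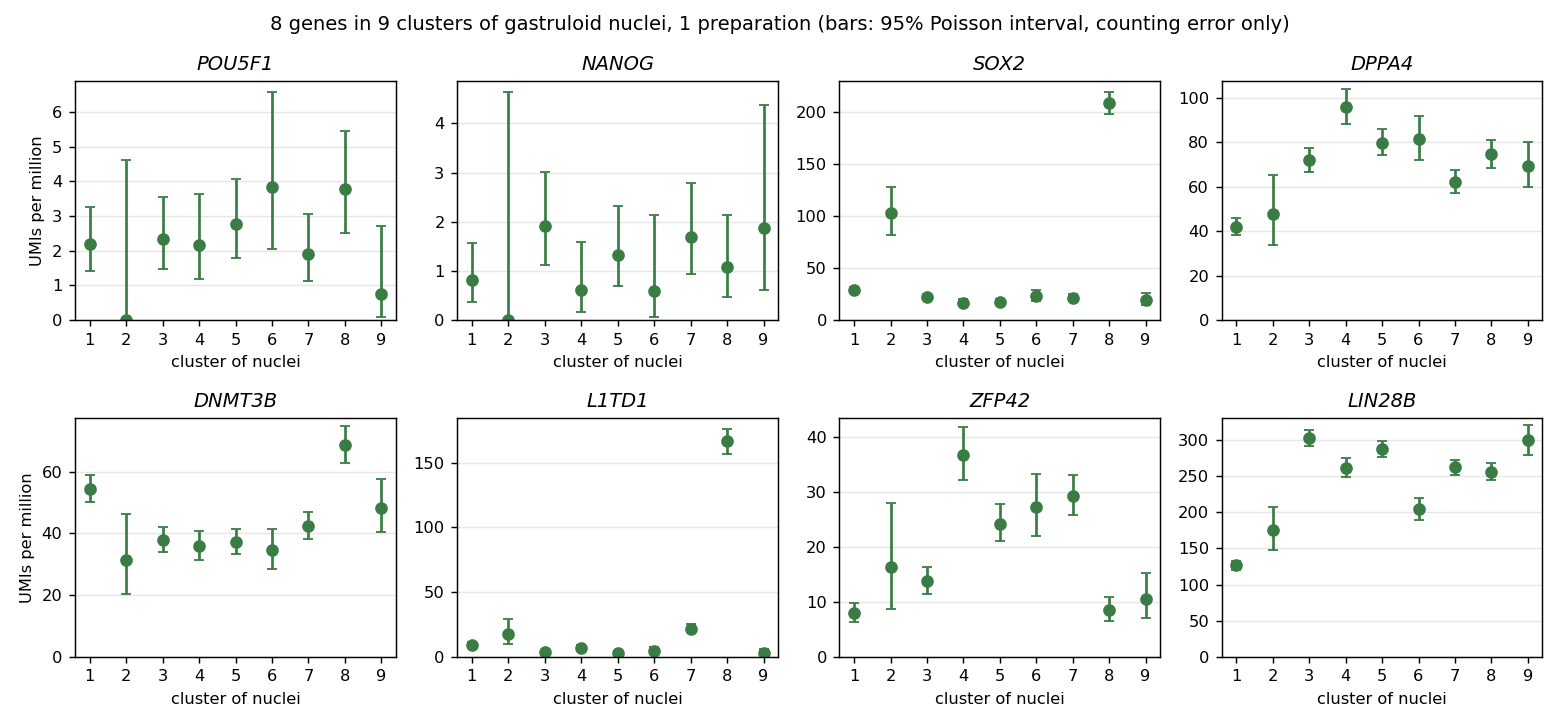
UMI CPM (UMIs for each 1000000, vertical axis from 0, its own scale for each gene) of the 8 genes in the table for each of 9 clusters of gastruloid nuclei, with 95% Poisson intervals that cover counting error only. SOX2 and L1TD1 stand out in cluster 8 (208 and 167), ZFP42 in cluster 4 (36.7), while the intervals of POU5F1 and NANOG overlap over the clusters.

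Accessible chromatin in the same gastruloid preparation (205374 regions called over all nuclei, GRCh38) was set beside the same genes. A region overlapped the 300 bases around a start of SOX2, DPPA4, DNMT3B, L1TD1, ZFP42, LIN28B and PRDM14, 7 of the 10, a share near the 60.6% of 27305 genes with a promoter in the RefSeq table that had one. For POU5F1, NANOG and TDGF1 none did. The nearest region lay 1.24 kb from the POU5F1 start, 0.988 kb from that of NANOG and 0.354 and 1.17 kb from the TDGF1 starts. For POU5F1 and PRDM14 the start is the 5′ end of the RefSeq gene. The region at PRDM14 was present although the gene was not in the RNA table.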

How the data were processed

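According to the methods and labels, the authors aligned bulk reads (stranded mRNA kit) to hg19 with HISAT2 (2.1.0) and deposited raw counts of uniquely mapped reads (MAPQ over 10) per gene and repeat copy from featureCounts (1.6.2). Whether counting used the strand is not given in the sources used here, so overlaps such as SOX2-OT are uncertain. The deposited gastruloid counts are UMIs per gene and nucleus from cellranger-arc (2.0.0, GRCh38), with accessible regions as positions.

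Genes with at least 3 reads in 1 library of a comparison were tested with edgeR (4.0.16, TMM, quasi-likelihood F test, the compared groups alone) with Benjamini-Hochberg adjustment over all genes. Standard errors (SE) were derived from this test as the absolute log2 fold change over the square root of F. The test was also run on simulated counts, with 100 genes changed by a log2 of 1 and 100 by 2. In endoderm against hESC 58 and 99 of these reached an edgeR adjusted p below 0.05. For the sgRNA in endoderm it was 51 and 100, in foregut 6 and 71, and for the difference of the sgRNA effects 4 and 54. The changed genes were drawn from those with a mean above 5 CPM, and the 2-fold limit was not applied. In foregut POU5F1, TDGF1, NANOG and PRDM14 lay below that level, so the foregut counts do not cover them. DESeq2 (1.42.0) and limma-voom (3.58.1, as the authors used) were alternatives. A floor of 3 reads per library was taken for a group without any read. Nuclei with at least 1000 UMIs, 200 genes and at most 25% mitochondrial UMIs were clustered (scanpy 1.11.5, 2000 variable genes without the members, 30 components, Leiden 0.5), with doublets marked by Scrublet. GRCh37 positions came from GENCODE. Replicates are described in the methods as biologically independent. Same-numbered libraries correlated at no more than 0.135 in their deviations from group means and were not paired.

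The members and lists were chosen with earlier results of these data known. From each other list at most 4 genes were named, those called with the largest change in endoderm at 1 CPM or more and without overlap of groups, and for POU5F1, NANOG and SOX2 the 5 genes of nearest profile, some of which are not reported here. Other list genes are named as paralogs, as the full endoderm list, as cluster markers or as markers at or under 3 reads. SALL4, ZIC2, OTX2, PDX1, NANOS3, SOX15 and DAZL are named after their values were seen.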

Additional observations from a re-analysis of the deposited data

How the results depend on the processing

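The number of the 10 genes called was within 1.5 times the main count under every alternative run (DESeq2, limma-voom, median-ratio size factors, another low-count filter or none, all 12 libraries in 1 fit, no mitochondrial genes, no fold limit, a replicate block) with these exceptions. Without a low-count filter 1 gene, NANOG, was called for the sgRNA in endoderm instead of 0. Leaving out single libraries gave 6 to 8 calls in endoderm against hESC, 9 to 10 and 8 to 10 in foregut against endoderm without and with sgRNA, 9 to 9 in foregut against hESC, 0 to 0 for the sgRNA in each tissue, and 0 to 1 for the difference of the sgRNA effects (TDGF1, −2.01, without foregut sgRNA replicate 1). Single genes were followed through these fits for all 10 members, with 2 exceptions. For the sgRNA in foregut only POU5F1, SOX2, ZFP42 and TDGF1 were followed, and for the difference of the sgRNA effects only L1TD1 and TDGF1. Among the changes followed, signs turned only for changes that were not called. These were SOX2 in foregut against hESC (−0.14 to 0.31 over the fits without 1 library) and, over the same kind of fits, the sgRNA changes of L1TD1 (−0.19 to 0.07), LIN28B (−0.24 to 0.22) and TDGF1 (−0.19 to 0.17) in endoderm and of POU5F1 (−2.29 to 0.23) and SOX2 (−0.09 to 0.43) in foregut. The cause was not tested. Over all genes, the sgRNA in endoderm gave 7 calls by edgeR, 47 by DESeq2, 1 by limma-voom, 186 without a filter and 1 with filterByExpr or with all libraries in 1 fit, and 1 to 9 with 1 library left out. In foregut it gave 33, 31, 11, 33, 1 and 209, and 16 to 527. The difference of these effects gave 44 calls, 236 by DESeq2, 139 without a filter, 89 with all libraries and 0 to 805. Foregut against endoderm with sgRNA gave 5457 calls, and 3484 to 8261 with 1 library left out. The replicate number as a block gave 8, 10, 10, 9, 0, 0 and 0 member calls and, over all genes, 19 for the sgRNA in foregut and 16 for the difference. The numbers did not pair the samples, since same-numbered libraries of the endoderm groups correlated at −0.03 to 0.037. In foregut, same-numbered sgRNA and control libraries correlated at −0.131, and with the numbers crossed, an alternative chosen after seeing the data, 0 of the 10 and 74 genes in all were called. Without mitochondrial counts in the library sizes, the summed level of the 10 genes was 4219 CPM in hESC, 2260 in endoderm and 328 in foregut, above the main values of 3227, 1984 and 251.5. The share of gastruloid nuclei with a UMI of any of the 8 genes, 85.4% in the main setting, was 86.7% at 15% mitochondrial UMIs or less, 83.5% without marked doublets and 56.6% when thinned to 2000 UMIs. In the main setting LIN28B alone was in 66.2% of nuclei, POU5F1 in 1.44% and NANOG in 0.657%. At Leiden resolution 1.0 the highest SOX2 level was 282 UMI CPM, in a cluster of 25 nuclei. Foregut groups of 2 libraries limit what can be seen there.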

Other observations

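Together the 10 genes made up 2955 and 3500 CPM in hESC, 1727 to 2269 CPM in endoderm without sgRNA, 1483 to 1706 CPM in endoderm with sgRNA, 218.5 and 284.5 CPM in foregut without sgRNA and 246.6 and 288.1 CPM in foregut with sgRNA. In foregut most of that sum was SOX2. Of the 13 genes of the NODAL and FGF inputs, 7 of which were called higher in endoderm, 9 were called lower in foregut than in endoderm without sgRNA, where 15% of all genes were, with NODAL at 1.34 ± 0.40 CPM and LEFTY1 and LEFTY2 without a read.

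Of the 3197 gastruloid nuclei thinned to 5000 UMIs, 466 (14.6%) held no UMI of the 8 genes, 1270 held UMIs of 1, 973 of 2, 384 of 3, 94 of 4 and 10 of 5. The genes found in most nuclei were LIN28B (66.2%) and DPPA4 (28.1%), while POU5F1 was in 1.44% and NANOG in 0.657%.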
